A study of Mus musculus with 12 samples.

Results

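The surface of the colon takes up salt, water and short-chain fatty acids and secretes bicarbonate, potassium and some chloride, and 38 genes for the proteins that do this were followed in colonic crypts of mice with a non-phosphorylatable CBP, with epithelial deletion of p53, or with both. The genes were a fixed list, chosen with earlier results of these data known. They were looked up by symbol among the 55471 genes of the deposited table, and each of the 38 was present. RNA was sequenced from 12 mice, 3 in each of 4 groups, with 1 library per mouse. CBPWTp53-floxed mice had normal CBP, the product of *Crebbp*, and homozygous floxed *Trp53* alleles, which every group carried. In CBPAAp53-floxed mice the phosphorylated serines of CBP are replaced with alanines, a germline knock-in made in embryonic stem cells and crossed onto C57BL/6. In CBPWTp53ΔIEC and CBPAAp53ΔIEC mice *Trp53* was removed by Cre recombinase driven by the villin promoter, which acts in the epithelium of the whole intestine. The crypt protocol of the study describes female mice aged 8 weeks, whose opened colons were shaken in EDTA to release the crypts. The labels name the strain C57BL/6J and mark the groups WT, AA, p53koWT and p53koAA. Library names also carry a further number, and 1 such number occurs in both p53ΔIEC groups. What these numbers mean is not stated, and no label says whether mice of different groups are related.

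Electroneutral salt absorption pairs a sodium/proton exchanger with a chloride/bicarbonate exchanger, and carbonic anhydrases supply both with protons and bicarbonate. The distal colon adds electrogenic uptake through the epithelial sodium channel ENaC, which aldosterone controls through the mineralocorticoid receptor, and the Na/K pump at the basolateral side drives all of these steps. Butyrate, made by bacteria from fibre, enters colonocytes through monocarboxylate carriers and is their main fuel. Secretion runs mainly in the crypt through CFTR, potassium channels that keep its driving force, and the bestrophin anion channel of goblet cells, while the peptide guanylin acts on guanylate cyclase C to shift the balance from uptake to secretion.

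The libraries held 11177430 to 18029125 counted reads. *Trp53* had a level of 23.3 to 33.5 TPM, the deposited transcript abundance scaled to gene length and library size, in the 6 p53-floxed libraries and of 3.26 to 6.13 TPM in the 6 p53ΔIEC libraries, and *Crebbp* lay between 5.98 and 11.5 TPM in all 12. Of 8 epithelial genes all were detected, with *Epcam* at 1011 to 1477 TPM, whereas 11 of 12 genes of stroma and smooth muscle stayed under 1 TPM in every library and the sum of 9 leukocyte genes did not exceed 8.49 TPM. In 4 libraries the Paneth cell gene *Lyz1* and the ileal gene *Fabp6*, which mark the small intestine, stood apart. CBPAAp53-floxed replicate 2, CBPWTp53ΔIEC replicate 1 and CBPAAp53ΔIEC replicates 1 and 3 had *Lyz1* levels of 123, 2281, 410 and 789 TPM, against at most 13.7 TPM in the other 8. Their *Fabp6* levels were 217, 1629, 453 and 500 TPM, against 3.78 to 20.1 TPM. The sum of 16 small-intestinal enterocyte genes was 3309, 6632, 1851 and 3785 TPM in them, against 878 to 1812 TPM. These 4 are named libraries with small-intestinal RNA below, after the genes that were high. Where that RNA came from was not tested. A further library, CBPAAp53-floxed replicate 1, had 0.683 TPM of *Xist*, the X inactivation transcript, where the others had 65.9 to 168 TPM, and 4 Y-linked genes did not exceed 0.0423 TPM in any library. The difference on p53 deletion was also computed without single ones of these 5 libraries or all 4 with small-intestinal RNA. Its sign changed for 5 of 37 members tested in CBPWT mice and 20 in CBPAA mice. Of the 3 members called, all in CBPWT mice, it changed for 0. Calls and the members that varied most are therefore also given without these libraries.

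The transport genes differed in level over more than 4 orders of magnitude. *Car1*, a cytosolic carbonic anhydrase of colonocytes, averaged 12541 TPM over the 12 libraries and ranked 5 among all genes, and *Guca2a*, which encodes guanylin, averaged 7784 TPM and ranked 11. *Atp1b1*, the beta subunit of the Na/K pump, followed at 1132 TPM and *Car2*, another cytosolic carbonic anhydrase, at 974.8 TPM. The means of 18 genes lay between 100 and 1000 TPM, those of 12 between 10 and 100 TPM and those of 3 between 1 and 10 TPM, which were *Fxyd4*, *Nedd4l* and *Kcnma1*. *Scnn1g*, the gamma subunit of ENaC, averaged 0.598 TPM, and *Aqp3*, an aquaglyceroporin, averaged 0.238 TPM with 0 to 14 reads per library. The 38 genes together made up 1.96% to 3.37% of all TPM of a library, of which *Car1* and *Guca2a* alone took 1.42% to 2.70%. Between the highest and the lowest library 18 genes differed by at most 2-fold and 7 by more than 3-fold. The steadiest were *Gucy2c*, the receptor for guanylin, with 141.8 to 189.1 TPM, *Car2* with 831 to 1123 TPM, and *Nedd4l*, a ubiquitin ligase that removes ENaC, with 5.97 to 8.16 TPM.

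**Figure D1:**
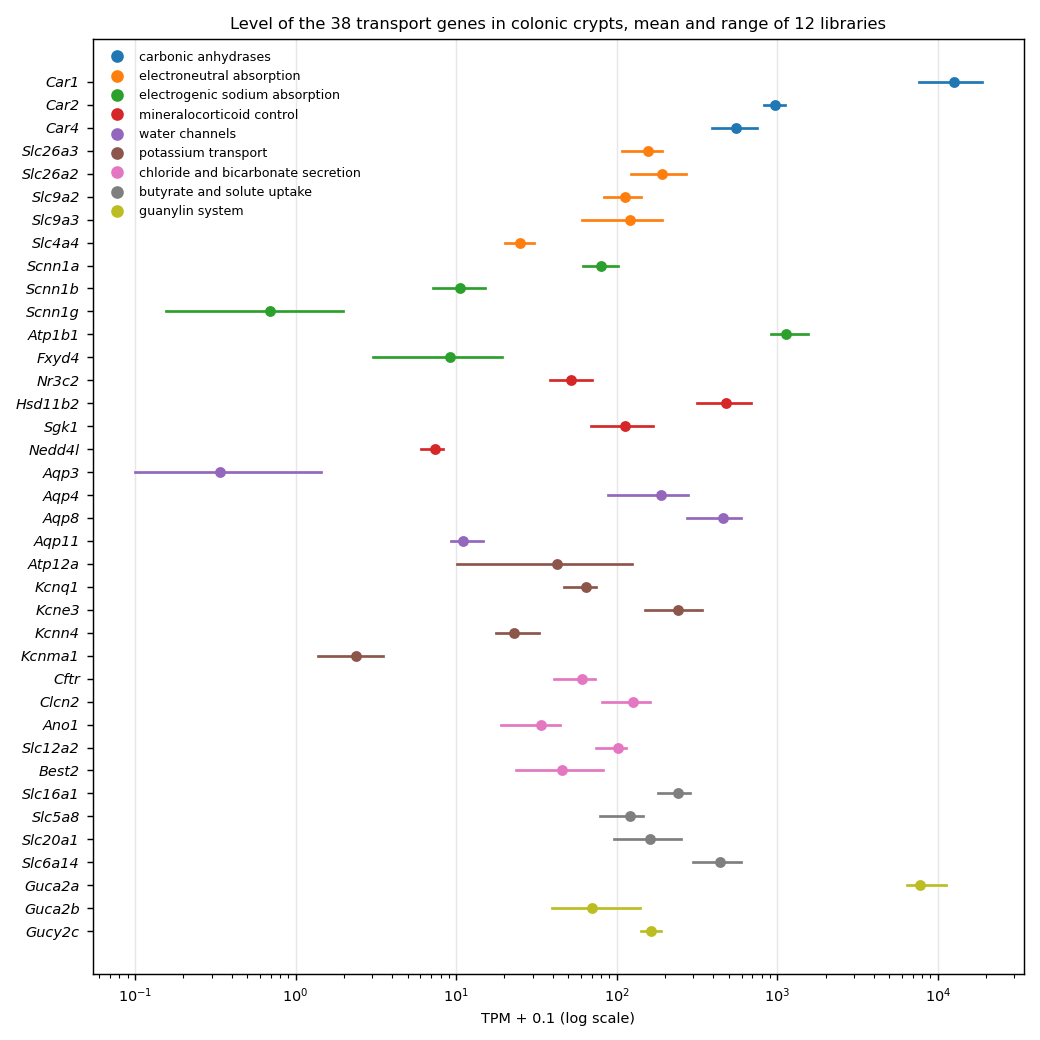
Mean (point) and range (line) of the level of each of the 38 genes over the 12 libraries, in TPM plus 0.1 on a log scale, coloured by role. *Car1* and *Guca2a* stand at the right, far above the rest, and *Scnn1g* and *Aqp3* at the left, with means of 0.598 and 0.238 TPM.

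Levels of adjacent genes differed widely. *Guca2a* and *Guca2b*, which encodes uroguanylin, are 17.1 kb apart on chromosome 4, and their means were 7784 and 69.9 TPM. *Scnn1g* and *Scnn1b*, the beta subunit of ENaC, are 96.6 kb apart on chromosome 7 with means of 0.598 and 10.5 TPM, while *Scnn1a*, the alpha subunit on chromosome 6, had 79.4 TPM. *Car1* and *Car2* are 77.9 kb apart on chromosome 3 with 1 protein-coding gene between them.

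Promoters of *Slc9a3* and *Car4*, members with lower levels after p53 deletion, are shown so that the letters in front of genes discussed here can be read. They are the 250 bases before the transcript start in RefSeq, on GRCm38.p6, forward strand, written 5′ to 3′, with GC boxes (GGGCGG, searched on both strands, so that CCGCCC marks the reverse) in capitals. The *Slc9a3* window is chr13:74121163-74121412 and the *Car4* window is chr11:84957504-84957753.
Slc9a3: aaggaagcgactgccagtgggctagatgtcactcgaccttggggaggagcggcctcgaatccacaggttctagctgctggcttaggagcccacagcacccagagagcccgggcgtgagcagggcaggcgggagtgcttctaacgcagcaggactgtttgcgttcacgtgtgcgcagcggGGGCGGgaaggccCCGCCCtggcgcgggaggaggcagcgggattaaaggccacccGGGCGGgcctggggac
Car4: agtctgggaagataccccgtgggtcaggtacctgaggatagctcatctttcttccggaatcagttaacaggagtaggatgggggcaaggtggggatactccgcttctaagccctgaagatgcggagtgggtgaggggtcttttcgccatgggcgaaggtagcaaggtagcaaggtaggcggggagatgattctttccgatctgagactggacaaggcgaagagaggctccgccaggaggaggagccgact
The *Slc9a3* window held GC boxes that begin 71, 58 and 16 bases before the start, and the *Car4* window held none. Windows were found for 25 of the 38 genes, 33 windows in all, and 60.6% of these held a GC box against 32.7% of the 32841 windows of the reference table. The TATA box TATAAA was present in 12.1% against 12.4%, the steroid receptor motif AGAACA in 15.2% against 16.1%, the CDX motif TTTATG in 6.06% against 10.8% and the p53 decamer in 3.03% against 7.13%. The motifs were searched on both strands, and none contains another, but TATAAA read on the reverse strand shares its first 5 letters with TTTATG. A match is a run of letters and was not tested for binding.

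Deletion of p53 in the epithelium of mice with normal CBP addressed whether p53 alters these genes. *Slc9a3*, the apical sodium/proton exchanger NHE3, *Best2*, a bestrophin anion channel, and *Hsd11b2*, the enzyme that keeps glucocorticoids off the mineralocorticoid receptor, fell in CBPWTp53ΔIEC against CBPWTp53-floxed crypts. Of the 38 genes 37 could be tested, since *Aqp3* had too few reads. A gene was called where the log2 fold change was beyond 0.5 on either side and the edgeR p, adjusted over the 14610 genes tested, lay below 0.05. This held for 3 members, all lower, and for 3.15% of all genes tested, of which 0.856% were lower and 2.29% higher. The 3 calls were near the threshold and were lost when some single libraries were left out, as given below. Without the fold cutoff the count of members was the same, against 3.72% of all genes. Beyond the calls the list, which was chosen with earlier results of these data known, leaned the same way. Of the 37 genes, 27 had a lower mean, against 48.8% of all genes tested, 10 were lower and 2 higher at an unadjusted p under 0.05, or 27.0% lower against 8.28%, with 12.6% of all genes higher, and 15 were lower in every CBPWTp53ΔIEC library than in any CBPWTp53-floxed library, or 40.5% against 14.7%. In the other direction 2 members did not overlap, *Car1* and *Slc20a1*, against 16.1% of all genes. These counts are on TMM-scaled counts. On deposited TPM 15 members were also lower without overlap, against 12.9% of all genes, with *Aqp11* in place of *Ano1*, and 1 was higher, *Car1*, against 8.43%. The median log2 fold change was -0.16 over the 37 genes and 0.01 over all genes tested. In whole crypts, fewer cells of a type and less RNA per cell cannot be told apart.

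The same deletion in CBPAA mice, CBPAAp53ΔIEC against CBPAAp53-floxed, gave 0 called members where edgeR called 0.0274% of all genes. At an unadjusted p under 0.05, 5 members were lower, or 13.5% against 5.41% of all genes, and 1 was higher, against 7.19%. DESeq2 called 1 member, *Car4*, and 73 of 13457 genes with an adjusted p. A lower mean was found for 22 of 37 members, against 47.8% of all genes, and the groups did not overlap for 2 lower members, *Car2* and *Car4*, and 1 higher, *Cftr*, against 7.18% and 7.86% of all genes. On deposited TPM both *Car2*, with 1075, 1015 and 884 against 842, 1048 and 962 TPM, and *Car4* overlapped, and 0 members were lower and 1 was higher without overlap, against 2.67% and 11.7% of all genes. The median was -0.13 over the members and 0.01 over all genes. Averaged over both CBP genotypes, which uses all 12 mice, 3 members were called, *Best2* and *Slc9a3* lower and *Car1* higher, with 3.50% of all genes called, 0.732% lower and 2.77% higher. A lower mean was found for 26 of 37 members, against 48.4% of all genes. At an unadjusted p under 0.05, 13 members were lower, or 35.1% against 8.73% of all genes, and 1 was higher, against 13.2%, and without the fold cutoff *Hsd11b2*, *Car4* and *Scnn1a* also had an adjusted p under 0.05, which 4.93% of all genes had. The averaged values contain both simple comparisons and are not independent of them.

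**Figure D2:**
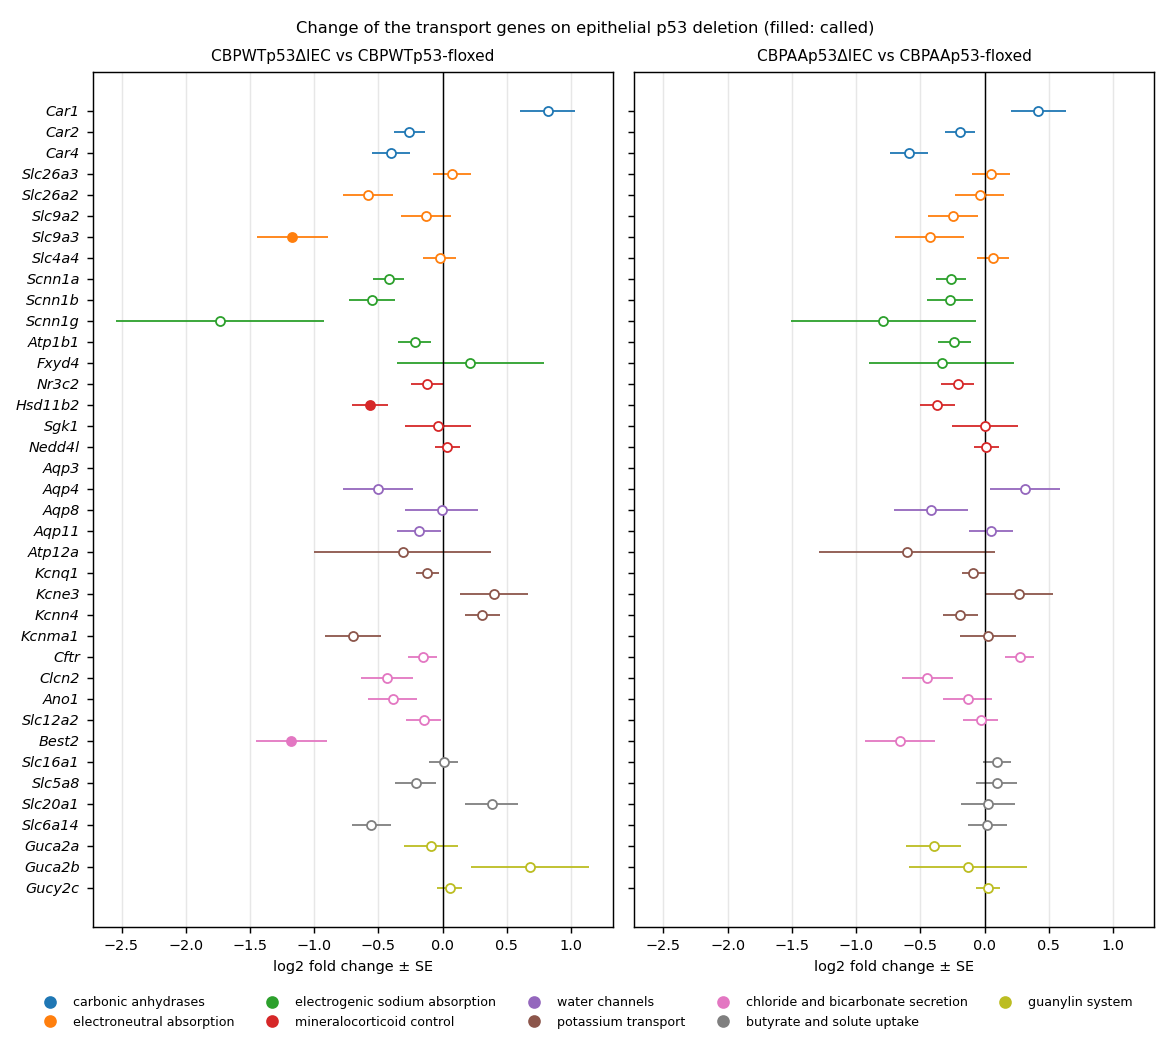
Log2 fold change with its standard error for the 37 genes tested, on deletion of p53 in CBPWT mice (left) and in CBPAA mice (right), 3 mice per group, coloured by role; filled points were called. *Slc9a3*, *Best2* and *Hsd11b2* are the filled points on the left, and there are none on the right.

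Among genes of electroneutral absorption, *Slc9a3* (ENSMUSG00000036123, chromosome 13, 74121457 to 74169442) had levels of 170, 193 and 175 TPM in the CBPWTp53-floxed libraries and of 88.7, 60.4 and 78.9 TPM in the CBPWTp53ΔIEC libraries. The CBPAAp53-floxed libraries had 179, 96.1 and 106 TPM and the CBPAAp53ΔIEC libraries 68.3, 106 and 130 TPM. The CBPWT groups did not overlap, whereas in CBPAA mice the p53-floxed replicates 2 and 3 were as low as p53ΔIEC libraries. The log2 fold change was -1.17 ± 0.27 (SE; adjusted p = 0.0417, edgeR) in CBPWT mice, -0.43 ± 0.27 (adjusted p = 0.510) in CBPAA mice and -0.80 ± 0.19 (adjusted p = 0.0369) averaged. The difference between the first 2 values was 0.74 ± 0.38 with an adjusted p of 0.517, so that a difference between genotypes was not shown.

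The other genes of this group moved less. *Slc9a2*, the exchanger NHE2, had a log2 fold change of -0.13 ± 0.20 in CBPWT mice and of -0.25 ± 0.20 in CBPAA mice. *Slc26a3*, the chloride/bicarbonate exchanger DRA, had 0.07 and 0.05, with a 95% interval from -0.25 to 0.39 in CBPWT mice, and its levels ran from 108 to 192 TPM. *Slc4a4*, the basolateral sodium bicarbonate cotransporter, had -0.02 and 0.07. The sulfate transporter *Slc26a2* had 219, 233 and 260 TPM in CBPWTp53-floxed and 123, 165 and 182 TPM in CBPWTp53ΔIEC crypts, groups that did not overlap. Its log2 fold change was -0.58 ± 0.19 (adjusted p = 0.11) there and -0.04 ± 0.19 in CBPAA mice. Thus 1 of 5 genes was called and 4 of 5 had a lower mean in CBPWTp53ΔIEC crypts.

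Of the 3 carbonic anhydrases 1 was higher and 2 were lower. *Car1* (ENSMUSG00000027556, chromosome 3, 14766216 to 14808368) had 10887, 8601 and 8964 TPM in CBPWTp53-floxed, 8988, 12866 and 7691 TPM in CBPAAp53-floxed, 14552, 15681 and 18850 TPM in CBPWTp53ΔIEC and 18877, 11713 and 12820 TPM in CBPAAp53ΔIEC crypts. Each CBPWTp53ΔIEC library was above each CBPWTp53-floxed library, and in CBPAA mice p53-floxed replicate 2 lay within the range of the p53ΔIEC group. Its log2 fold change was 0.82 ± 0.21 (adjusted p = 0.0524, edgeR, and 0.00311 by DESeq2) in CBPWT mice and 0.42 ± 0.21 (adjusted p = 0.424) in CBPAA mice, and the averaged value of 0.62 ± 0.15 (adjusted p = 0.0347) was called.

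*Car4* (ENSMUSG00000000805, chromosome 11, 84957786 to 84966044), the carbonic anhydrase anchored to the outer face of the apical membrane, had 718, 746 and 570 TPM in CBPWTp53-floxed and 440, 523 and 544 TPM in CBPWTp53ΔIEC crypts. In CBPAA mice it had 708, 633 and 459 TPM with floxed p53 and 411, 395 and 490 TPM without p53. On this scale the CBPAA groups overlapped in the single value of p53-floxed replicate 3, while on counts scaled with TMM neither pair of groups overlapped. The log2 fold change was -0.40 ± 0.15 (adjusted p = 0.142) in CBPWT and -0.59 ± 0.15 (adjusted p = 0.320) in CBPAA mice. Averaged, it was -0.50 ± 0.10 (adjusted p = 0.0193), just short of the fold cutoff. *Car2* had a value of -0.26 ± 0.12 in CBPWT and -0.19 ± 0.12 in CBPAA mice, with adjusted p of 0.236 and 0.505. *Car1* and *Car4* thus differed from their p53-floxed groups in opposite directions.

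**Figure D3:**
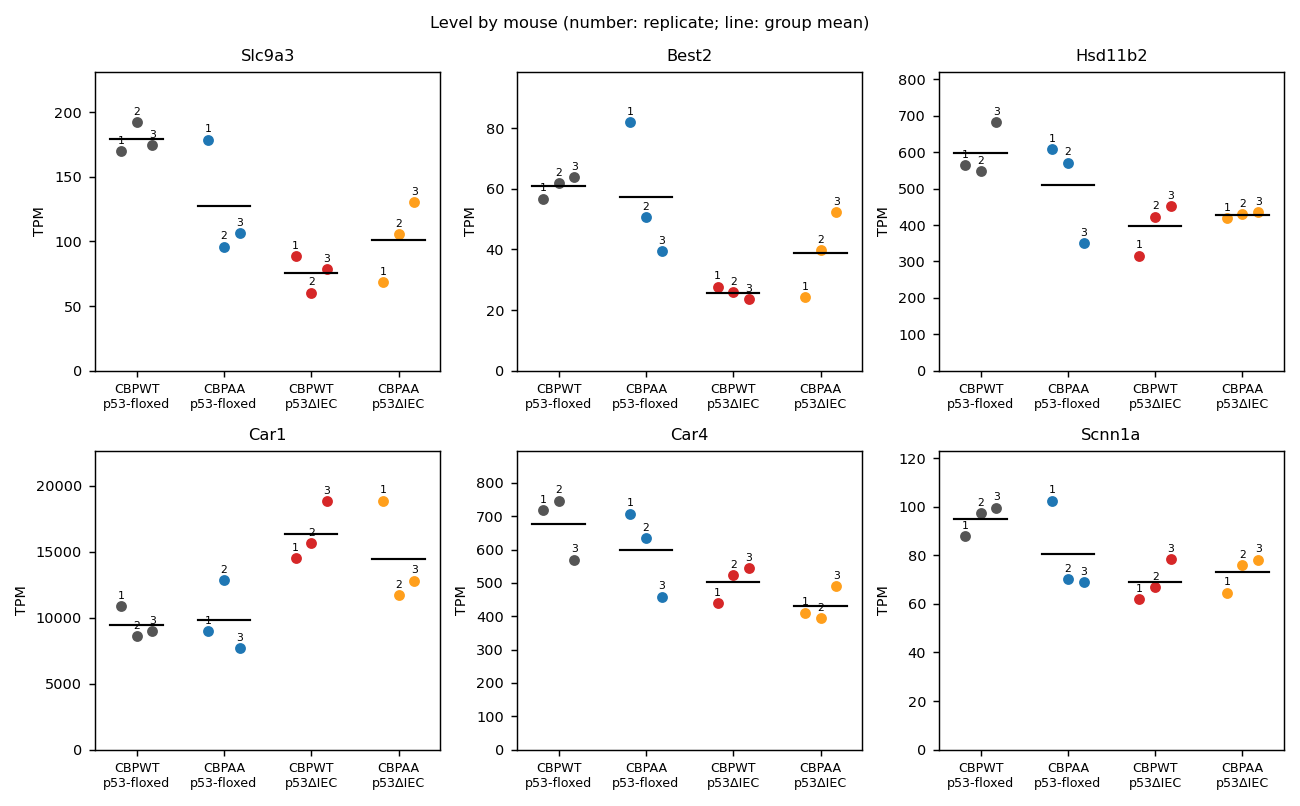
Level in TPM of the 6 genes with an adjusted p under 0.05 in the averaged comparison, in each of the 12 mice (points, numbered by replicate) with the mean of each group of 3 (line). *Slc9a3*, *Best2*, *Hsd11b2*, *Car4* and *Scnn1a* have lower means in both p53ΔIEC groups than in the p53-floxed group with the same CBP genotype, and *Car1* has higher ones.

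For electrogenic sodium absorption 0 of 5 genes were called, and 4, the 3 subunits of ENaC and *Atp1b1*, were lower in each CBPWTp53ΔIEC library than in any CBPWTp53-floxed library, as were 14.7% of all genes. *Scnn1a* had 87.9, 97.2 and 99.6 TPM in CBPWTp53-floxed, 102, 70.3 and 69.0 TPM in CBPAAp53-floxed, 61.9, 67.0 and 78.6 TPM in CBPWTp53ΔIEC and 64.6, 76.1 and 78.2 TPM in CBPAAp53ΔIEC crypts. CBPAAp53-floxed replicates 2 and 3 were again in the range of the p53ΔIEC libraries. The log2 fold change was -0.42 ± 0.12 (adjusted p = 0.0675) in CBPWT, -0.26 ± 0.12 (adjusted p = 0.391) in CBPAA and -0.34 ± 0.08 (adjusted p = 0.0359) averaged.

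*Scnn1b* had a log2 fold change of -0.55 ± 0.18 (adjusted p = 0.101) in CBPWT and of -0.27 ± 0.18 in CBPAA mice. It is overlapped on the opposite strand by *Cog7*, a Golgi gene with a mean of 394 reads against 155 for *Scnn1b*, and since the use of strand in counting is not given in the sources used here its value is uncertain. *Scnn1g* had 11, 13 and 19 reads in CBPWTp53-floxed, 28, 6 and 6 in CBPAAp53-floxed, 7, 1 and 3 in CBPWTp53ΔIEC and 3, 8 and 13 in CBPAAp53ΔIEC libraries. With so few reads its log2 fold changes of -1.73 ± 0.81 (adjusted p = 0.243) and -0.79 ± 0.72 were imprecise, although the first was the furthest from 0 of all members. Without CBPWTp53ΔIEC replicate 1 the *Scnn1g* value in CBPWT mice was -2.77, and without CBPAAp53-floxed replicate 1 that in CBPAA mice was 0.41, a change of sign.

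The pump subunit *Atp1b1* had -0.22 ± 0.13 and -0.23 ± 0.13. *Fxyd4*, a regulator of the pump, had 7.11, 9.75 and 5.28 TPM in CBPWTp53-floxed, 19.1, 5.78 and 8.20 TPM in CBPAAp53-floxed, 2.94, 12.1 and 11.1 TPM in CBPWTp53ΔIEC and 8.54, 15.9 and 3.60 TPM in CBPAAp53ΔIEC crypts. It varied 6.50-fold over libraries without following the groups, and its log2 fold changes were 0.22 ± 0.57 and -0.33 ± 0.57. Without CBPWTp53ΔIEC replicate 1 the first was 0.56, and the second changed sign, to 0.19 without CBPAAp53-floxed replicate 1 and to 0.12 without the 4 libraries with small-intestinal RNA.

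In the mineralocorticoid group 1 of 4 genes was called. *Hsd11b2* (ENSMUSG00000031891, chromosome 8, 105518755 to 105523988) had 565, 548 and 683 TPM in CBPWTp53-floxed and 316, 423 and 451 TPM in CBPWTp53ΔIEC crypts. CBPAAp53-floxed crypts had 608, 571 and 350 TPM and CBPAAp53ΔIEC crypts 418, 429 and 436 TPM, the narrowest spread of the groups, with p53-floxed replicate 3 below all of them. The log2 fold change was -0.57 ± 0.14 (adjusted p = 0.0423) in CBPWT, -0.37 ± 0.14 (adjusted p = 0.344) in CBPAA and -0.47 ± 0.10 (adjusted p = 0.0190) averaged. *Nr3c2*, the mineralocorticoid receptor itself, had -0.12 ± 0.13 and -0.21 ± 0.13. *Sgk1*, an aldosterone-induced kinase, had -0.04 ± 0.26 and 0.00 ± 0.26, and *Nedd4l* had 0.04 and 0.01, with a 95% interval from -0.18 to 0.25 in CBPWT mice.

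Among genes of chloride and bicarbonate secretion all 5 had a lower mean in CBPWTp53ΔIEC than in CBPWTp53-floxed crypts and 1 was called. *Best2* (ENSMUSG00000052819, chromosome 8, 85007202 to 85014531) had 56.8, 62.0 and 63.8 TPM in CBPWTp53-floxed and 27.7, 26.0 and 23.6 TPM in CBPWTp53ΔIEC crypts. The CBPAAp53-floxed libraries had 82.1, 50.7 and 39.5 TPM and the CBPAAp53ΔIEC libraries 24.3, 39.7 and 52.4 TPM. The CBPWT groups were tight and apart, and the CBPAA groups were wide and overlapped. The log2 fold change was -1.18 ± 0.28 (adjusted p = 0.0425) in CBPWT, -0.66 ± 0.27 (adjusted p = 0.372) in CBPAA and -0.92 ± 0.19 (adjusted p = 0.0227) averaged, and the difference between genotypes was 0.52 ± 0.39 with an adjusted p of 0.618. The goblet cell gene *Muc2*, which marks the cells known for *Best2*, had 2817 to 3240 TPM in CBPWTp53-floxed and 2133 to 4361 TPM in CBPWTp53ΔIEC crypts, and the sum of 7 goblet cell genes, 17318 to 20966 and 16809 to 23555 TPM, overlapped between these groups. Sums of other lists did not overlap between the CBPWT groups. That of 12 proliferation genes was 175 to 198 TPM in CBPWTp53-floxed and 279 to 630 TPM in CBPWTp53ΔIEC crypts. The sum of 3 deep crypt secretory genes, *Reg4*, *Kit* and *Spink4*, was 1310 to 1982 TPM in CBPWTp53-floxed and 3055 to 3276 TPM in CBPWTp53ΔIEC crypts, and 2359 to 5574 and 1477 to 4272 TPM in the corresponding CBPAA groups. The sum of 6 tuft cell genes was 45.0 to 50.9 TPM in CBPWTp53-floxed and 32.7 to 43.4 TPM in CBPWTp53ΔIEC crypts. That of 8 epithelial genes was 11903 to 13056 and 13368 to 15866 TPM, and that of 12 genes of stroma and smooth muscle 5.08 to 6.67 and 2.12 to 4.50 TPM. The part of these cells in the value of *Best2* was not tested.

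*Clcn2*, the chloride channel ClC-2, had -0.43 ± 0.20 (adjusted p = 0.240) in CBPWT and -0.44 ± 0.20 (adjusted p = 0.390) in CBPAA mice. It too has genes on the opposite strand, of which *Polr2h*, an RNA polymerase subunit, had 248 reads on average against 4350 for *Clcn2*. *Ano1*, a calcium-activated chloride channel, had -0.39 ± 0.19 and -0.13 ± 0.19, and *Slc12a2*, the basolateral cotransporter that loads cells with chloride, -0.15 ± 0.14 and -0.03 ± 0.14. *Cftr* had 57.9, 66.3 and 65.7 TPM in CBPWTp53-floxed, 63.6, 45.5 and 51.4 TPM in CBPAAp53-floxed, 40.6, 57.2 and 71.4 TPM in CBPWTp53ΔIEC and 70.2, 73.0 and 68.6 TPM in CBPAAp53ΔIEC crypts. Its log2 fold change was -0.16 ± 0.12 in CBPWT and 0.27 ± 0.12 in CBPAA mice (unadjusted p = 0.0339, adjusted p = 0.376).

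The potassium genes did not share a direction. *Kcnma1*, the BK channel of potassium secretion, had 1.29 to 3.39 TPM, and its log2 fold change was -0.70 ± 0.22 (adjusted p = 0.0922) in CBPWT and 0.03 ± 0.22 in CBPAA mice. *Kcnn4*, the basolateral channel opened by calcium, had 0.31 ± 0.14 (adjusted p = 0.219) and -0.19 ± 0.14. *Kcnq1*, the basolateral channel opened by cAMP, had -0.12 ± 0.09 and -0.09 ± 0.09. *Atp12a*, the colonic H/K pump that recovers potassium, had 33.9, 43.4 and 46.2 TPM in CBPWTp53-floxed, 125, 19.9 and 26.0 TPM in CBPAAp53-floxed, 10.1, 48.0 and 43.5 TPM in CBPWTp53ΔIEC and 30.7, 56.8 and 28.5 TPM in CBPAAp53ΔIEC crypts. It spanned 12.4-fold, with its highest level in CBPAAp53-floxed replicate 1 and its lowest in CBPWTp53ΔIEC replicate 1, and its log2 fold changes were -0.31 ± 0.69 and -0.61 ± 0.69. Each rested on 1 library: the first was 0.07 without CBPWTp53ΔIEC replicate 1 and the second 0.53 without CBPAAp53-floxed replicate 1. These 2 libraries also had the highest and the lowest summed level of 6 posterior *Hox* genes, which mark the distal colon and of which 3 were under 1 TPM in all libraries, 291 and 92.4 TPM, where the CBPWTp53-floxed libraries had 177 to 228 TPM; the part of crypt position in these values was not tested.

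*Kcne3*, the subunit that keeps *Kcnq1* channels open in the colon, fell into separate levels within both p53ΔIEC groups. It had 202, 222 and 204 TPM in CBPWTp53-floxed and 218, 173 and 218 TPM in CBPAAp53-floxed crypts. In CBPWTp53ΔIEC crypts it had 163, 341 and 325 TPM and in CBPAAp53ΔIEC crypts 322, 340 and 150 TPM. The log2 fold change was 0.40 ± 0.26 (adjusted p = 0.407) in CBPWT and 0.27 ± 0.26 (adjusted p = 0.672) in CBPAA mice. The summed level of 12 proliferation genes was lowest in the same library of each p53ΔIEC group as *Kcne3*. It was 279, 619 and 630 TPM in CBPWTp53ΔIEC, 496, 493 and 202 TPM in CBPAAp53ΔIEC and 169 to 246 TPM in the 6 p53-floxed libraries. CBPWTp53ΔIEC replicate 1 thus lay above all p53-floxed libraries in this sum and below all of them in *Kcne3*. The part of proliferation in the transport genes was not tested. The sum of 12 mature colonocyte genes overlapped between groups, with 15892 to 18428 TPM in CBPWTp53-floxed, 13606 to 18782 TPM in CBPAAp53-floxed, 18098 to 20860 TPM in CBPWTp53ΔIEC and 16773 to 20270 TPM in CBPAAp53ΔIEC crypts.

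**Figure D4:**
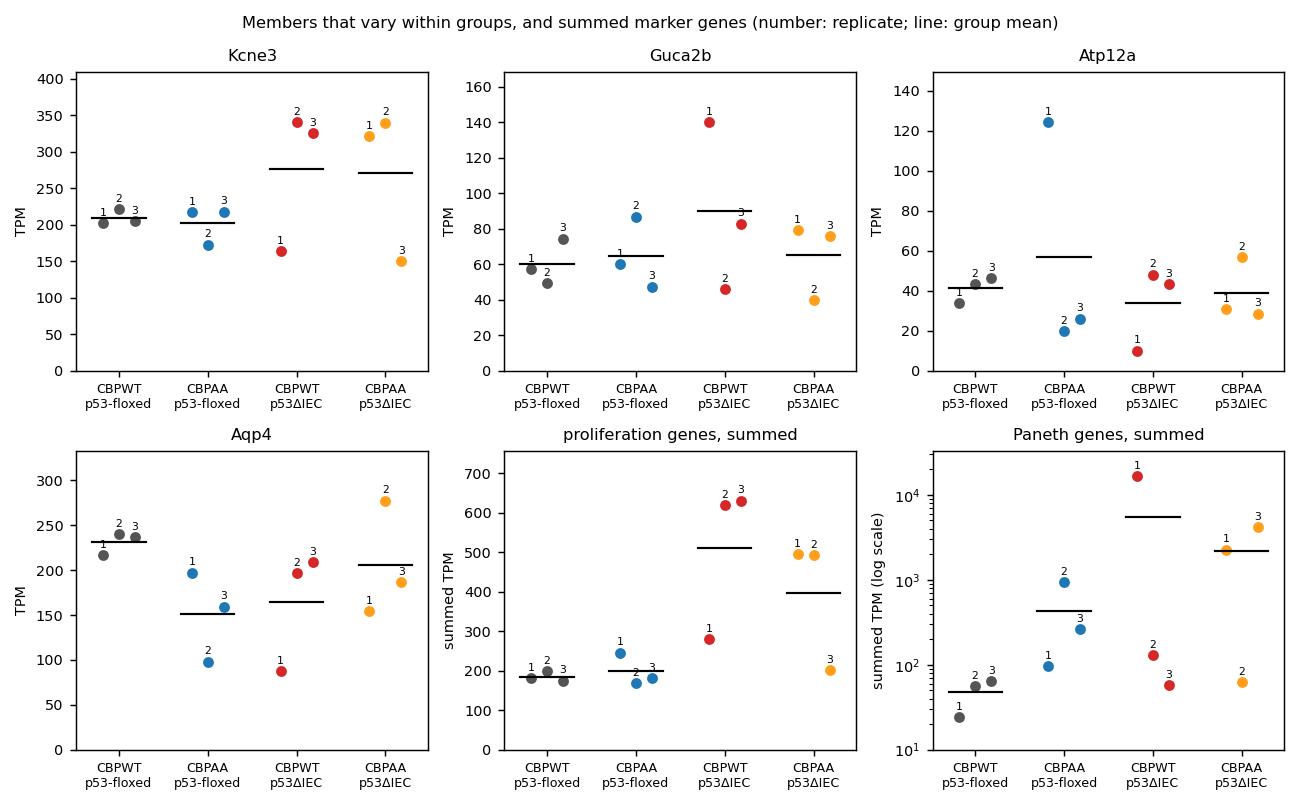
Level in TPM of *Kcne3*, *Guca2b*, *Atp12a* and *Aqp4*, and summed TPM of 12 proliferation genes and of 7 Paneth cell genes (log scale), in each of the 12 mice, numbered by replicate, with group means as lines. CBPWTp53ΔIEC replicate 1 and CBPAAp53ΔIEC replicate 3 have both the lowest *Kcne3* levels, 163 and 150 TPM, and the lowest proliferation sums, 279 and 202 TPM, of the p53ΔIEC libraries.

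Water channels gave 0 calls among the 3 that could be tested. *Aqp8*, the main aquaporin of surface colonocytes, had 273 to 598 TPM and log2 fold changes of -0.01 ± 0.29 in CBPWT and -0.42 ± 0.29 in CBPAA mice. *Aqp4*, a basolateral aquaporin, had 216, 240 and 237 TPM in CBPWTp53-floxed, 197, 98.0 and 160 TPM in CBPAAp53-floxed, 87.8, 197 and 209 TPM in CBPWTp53ΔIEC and 155, 277 and 187 TPM in CBPAAp53ΔIEC crypts. The CBPWTp53-floxed libraries were the tightest, and the lowest library of each other group was one with small-intestinal RNA. Its values were -0.50 ± 0.27 (adjusted p = 0.319) and 0.32 ± 0.27 (adjusted p = 0.632), and without CBPWTp53ΔIEC replicate 1 the first was -0.28. *Aqp11*, an intracellular aquaporin, had -0.18 ± 0.17 and 0.05 ± 0.17. *Aqp3* reached 14 reads in CBPAAp53ΔIEC replicate 3 and at most 5 in any other library.

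For butyrate and other solutes, *Slc16a1*, the monocarboxylate carrier MCT1, and *Slc5a8*, the sodium-coupled butyrate carrier SMCT1, were not called. *Slc16a1* lay between 182 and 285 TPM, with log2 fold changes of 0.01 ± 0.11 (95% interval -0.23 to 0.25) and 0.10 ± 0.11. *Slc5a8* lay between 79.2 and 145 TPM, with -0.21 ± 0.16 and 0.09 ± 0.16. The amino acid carrier *Slc6a14*, on the X chromosome, had 532, 599 and 566 TPM in CBPWTp53-floxed, 491, 297 and 370 TPM in CBPAAp53-floxed, 311, 425 and 393 TPM in CBPWTp53ΔIEC and 362, 455 and 460 TPM in CBPAAp53ΔIEC crypts, so that the CBPWTp53-floxed libraries lay above all other 9. Its log2 fold change on p53 deletion was -0.56 ± 0.15 (adjusted p = 0.0607) in CBPWT and 0.02 ± 0.15 in CBPAA mice. *Slc20a1*, a phosphate carrier, had 0.38 ± 0.21 (adjusted p = 0.321) and 0.03 ± 0.21, with its highest level of 252 TPM in CBPAAp53-floxed replicate 1, without which the second was 0.35.

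In the guanylin system 0 of 3 genes were called. *Guca2a* had -0.09 ± 0.21 and -0.40 ± 0.21, and *Gucy2c* had 0.05 ± 0.10 and 0.03 ± 0.10, with a 95% interval from -0.15 to 0.26 in CBPWT mice. *Guca2b*, which is more abundant in the small intestine than in the colon, had 57.4, 49.3 and 74.4 TPM in CBPWTp53-floxed, 59.8, 86.8 and 47.3 TPM in CBPAAp53-floxed, 140, 46.1 and 82.8 TPM in CBPWTp53ΔIEC and 79.4, 39.6 and 75.8 TPM in CBPAAp53ΔIEC crypts. The highest library of each group but the first was one with small-intestinal RNA. Its log2 fold changes were 0.68 ± 0.46 (adjusted p = 0.428) and -0.13 ± 0.46, and without the 4 libraries of that kind they were -0.02 and -0.57.

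**Figure D5:**
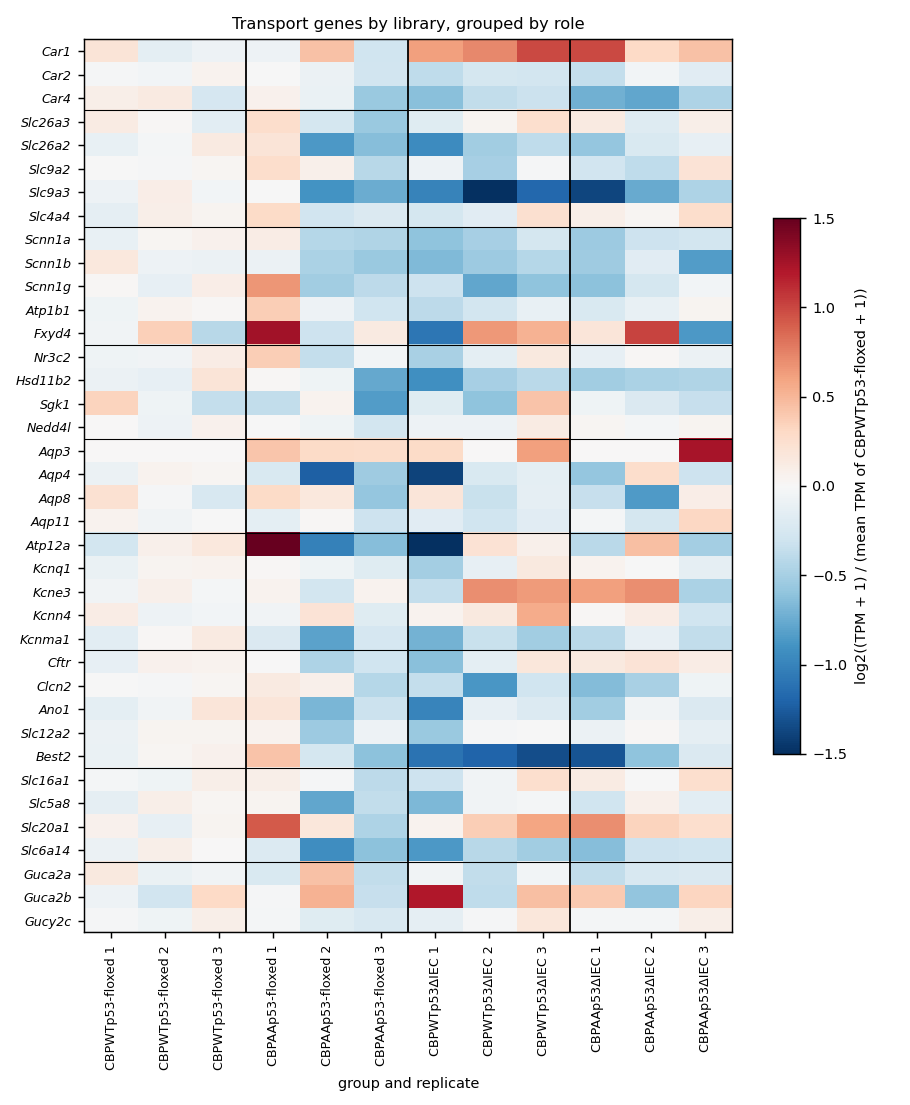
Log2 ratio of (TPM + 1) in each of the 12 libraries (columns) to the same mean of the CBPWTp53-floxed group, for the 38 genes (rows, in blocks by role); blue is lower, red is higher and colours end at 1.5 in either direction. *Slc9a3*, *Best2* and *Hsd11b2* are blue throughout the CBPWTp53ΔIEC columns and *Car1* is red there, while CBPAAp53-floxed replicates 2 and 3 are blue for many genes and replicate 1 is not.

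The 3 calls in CBPWT mice were near the threshold and moved with single libraries. None of them was kept when any CBPWTp53-floxed library, CBPWTp53ΔIEC replicate 2 or 3, or CBPAAp53ΔIEC replicate 2, which enters only through the shared spread, was left out. Calls over all genes moved as well, from 3.15% with all 12 libraries. They were 0.0469%, 0.0134% and 0.00671% without CBPWTp53-floxed replicates 1, 2 and 3 in turn. Without CBPWTp53ΔIEC replicates 2 and 3 in turn they were 0.0470% and 0.0269%, and without CBPAAp53ΔIEC replicate 2 they were 2.44%. Over the 12 fits without 1 library the log2 fold change ran from -1.46 to -0.998 for *Slc9a3*, from -1.38 to -1.03 for *Best2* and from -0.62 to -0.49 for *Hsd11b2*, with adjusted p of 0.0161 to 0.159, 0.0126 to 0.163 and 0.0289 to 0.187. Without CBPAAp53-floxed replicate 1, the library with little *Xist*, *Hsd11b2* was not called in CBPWT mice (adjusted p = 0.0506), and of the averaged calls *Best2* (adjusted p = 0.0515), *Car1* (0.0824) and *Slc9a3* (0.0843) were each lost. Of all genes 2.36% were then called in CBPWT mice and 2.04% averaged. *Best2* was also lost without CBPAAp53-floxed replicate 2 (adjusted p = 0.0511) and *Hsd11b2* without CBPAAp53ΔIEC replicate 1 (adjusted p = 0.0540). With no filter on low counts *Slc9a3* (adjusted p = 0.106) and *Best2* (adjusted p = 0.119) were not called in CBPWT mice, *Hsd11b2* was called (adjusted p = 0.0224), and *Car1* (adjusted p = 0.0293) and *Slc6a14* (adjusted p = 0.0297) were called as well. In that fit 1.53% of all genes were called. The averaged calls of *Slc9a3* (adjusted p = 0.0996) and *Best2* (adjusted p = 0.0714) were lost there too, with 1.71% of all genes called. By DESeq2 on all libraries the adjusted p in CBPWT mice was 0.000528 for *Slc9a3*, 0.000835 for *Best2* and 0.00298 for *Hsd11b2*.

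Without the 4 libraries with small-intestinal RNA, 11 of 37 members were called in CBPWT mice, 9 lower and 2 higher, where 11.4% of the 15208 genes then tested were called and 4.25% were called lower. *Slc9a3* had a log2 fold change of -1.46 (adjusted p = 5.94e-06), *Best2* of -1.38 (adjusted p = 0.00516) and *Hsd11b2* of -0.55 (adjusted p = 0.0108). *Slc26a2*, *Slc6a14*, *Kcnma1*, *Clcn2*, *Scnn1b* and *Scnn1g* were also called lower there, the last 3 with values of -0.67, -0.61 and -2.76. *Car1*, with 0.76 (adjusted p = 0.000796), and *Kcne3*, with 0.58 (adjusted p = 0.000637), were called higher. In CBPAA mice *Car4*, with -0.68 (adjusted p = 0.0468), and *Aqp4*, with 0.50 (adjusted p = 0.0166), were then called, with 6.92% of all genes, on a single remaining CBPAAp53ΔIEC library that is assumed to vary like the other groups. In the fit without the 4 libraries the CBPWTp53ΔIEC group held replicates 2 and 3 alone, and the libraries left out were chosen after the data were seen. With the summed Paneth level as a covariate in place of leaving libraries out, 4 of 37 members were called in CBPWT mice, 1 in CBPAA mice and 7 averaged, against 8.61%, 5.87% and 9.80% of all genes.

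Whether CBP that cannot be phosphorylated alters the transport genes was asked with and without p53. In CBPAAp53-floxed against CBPWTp53-floxed crypts 0 of 37 members were called, as were 0% of all genes, by edgeR. DESeq2 called 0 members, with 33 of 27137 genes called. At an unadjusted p under 0.05, 1 member was lower, *Slc6a14* with -0.44 ± 0.15 (unadjusted p = 0.0126, adjusted p = 0.618), and 0 were higher, against 4.18% and 3.86% of all genes. The largest values in size were 0.65 ± 0.57 for *Fxyd4*, 0.51 ± 0.68 for *Atp12a* and -0.49 ± 0.27 for *Aqp4*, all with an adjusted p above 0.6. *Fxyd4* and *Atp12a* had their highest levels of all libraries, 19.1 and 125 TPM, in CBPAAp53-floxed replicate 1, and with single libraries left out their values ran from 0.12 to 0.95 and from -0.63 to 0.90. The median over the members was -0.00305 and that of all genes 0.01, with 19 of 37 members lower, against 48.0% of all genes. The groups did not overlap for 2 lower members, *Slc6a14* and *Aqp4*, against 9.62% of all genes, and for 0 higher members, against 9.75%. On deposited TPM *Kcnma1* was lower without overlap as well, 3 members in all, against 14.4% of all genes. This comparison shares its control libraries with that of CBPWTp53ΔIEC crypts.

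In CBPAAp53ΔIEC against CBPWTp53ΔIEC crypts 0 members were called by edgeR and by DESeq2, where edgeR called 0.00684% of all genes and DESeq2 1 of 27137. At an unadjusted p under 0.05, *Cftr* was higher with 0.31 ± 0.12 and *Kcnn4* lower with -0.37 ± 0.14, against 1.81% and 1.76% of all genes in these directions, and in both cases the groups did not overlap (adjusted p = 0.985 for each), as for 4.76% and 4.50% of all genes. This held on TMM-scaled counts, whereas on deposited TPM the groups overlapped for both genes and 0 members were apart. A lower mean was found for 12 of 37 members, against 52.3% of all genes. *Best2* had 0.53 ± 0.28, *Guca2b* -0.58 ± 0.46 and *Scnn1g* 1.01 ± 0.87, the largest values in size. Averaged over both p53 states, 0 members were called for CBP genotype, with 0.00684% of all genes called, and 0 members had an unadjusted p under 0.05, against 1.15% of all genes lower and 1.42% higher, with 19 of 37 lower in mean against 50.6%. The averaged values ran from -0.21 for *Sgk1* to 0.54 for *Scnn1g*, and the 95% interval was -0.28 to 0.17 for *Slc26a3*, -0.10 to 0.24 for *Slc16a1* and -0.18 to 0.11 for *Gucy2c*.

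The difference between the p53 effects of CBPAA and CBPWT mice gave 0 called members by edgeR and DESeq2. Of all genes edgeR called 0.00684% and DESeq2 30 of 14509 with an adjusted p. At an unadjusted p under 0.05 *Slc6a14* (0.58 ± 0.21), *Kcnma1* (0.72 ± 0.31) and *Cftr* (0.43 ± 0.16) were higher and *Kcnn4* (-0.50 ± 0.19) lower, each with an adjusted p of 0.482, while 5.00% and 5.28% of all genes passed in these directions. A negative value was found for 17 of 37 members, against 52.5% of all genes. *Aqp4* had 0.82 ± 0.39 (adjusted p = 0.486), and without the 4 libraries with small-intestinal RNA its value of 0.78 was called (adjusted p = 0.0462), as were 0.230% of all genes. The CBPAAp53ΔIEC arm of that fit is replicate 2 alone, with the highest *Aqp4* level of all libraries, 277 TPM, and is assumed to vary like the other groups.

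Other genes of the same pathways were a list of 103, of which 101 were found by symbol and 67 could be tested. They did not lean the way of the 38. Both lists were chosen with earlier results of these data known, so their contrast is not an independent test. In CBPWTp53ΔIEC against CBPWTp53-floxed crypts 36 of the 67 had a higher and 31 a lower mean, where 48.8% of all genes were lower. The median log2 fold change was 0.02. At an unadjusted p under 0.05, 12 were higher and 4 lower, where 12.6% of all genes were higher and 8.28% lower. Called was 1, *Slc26a1*, a sulfate transporter with a mean of 1.73 TPM, at 2.19 ± 0.48 (adjusted p = 0.0340), with 3.15% of all genes called. Its highest level, 3.42 TPM, was in CBPWTp53ΔIEC replicate 3. Others of the 67, such as *Pdzk1*, *Slc26a6* and *Clca4b*, were highest in CBPWTp53ΔIEC replicate 1, a library with small-intestinal RNA, at 20.0, 21.8 and 201 TPM. Changes of the 67 without that library were not tested. Averaged over CBP genotypes 2 were called, where 3.50% of all genes were. These were *Slc26a1* at 1.32 ± 0.32 (adjusted p = 0.0354) and *Clca3b*, a secreted protein of the CLCA family with a mean of 243 TPM, at 0.67 ± 0.17 (adjusted p = 0.0452). In CBPAA mice and in both comparisons of CBP genotype 0 of the 67 were called by edgeR.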

How the data were processed

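Colonic crypt RNA of 12 mice was analysed from 1 deposited table. Per the labels and the submitters' processing notes, the authors prepared stranded mRNA libraries, sequenced them on an Illumina NovaSeq, trimmed reads with fastp 0.20.0, checked them with FastQC 0.11.9, aligned them to GRCm38 with HISAT2 2.1.0 and counted reads per gene with featureCounts of Subread 2.0.1; the strand setting is not given in the sources used here. The table holds the raw count and the TPM value, as deposited by the authors, of 55471 genes in each library. It also holds the authors' log2 fold changes, p-values and adjusted p-values for 5 group comparisons, which were not used. Library totals were 11177430 to 18029125 counts, so that genes with few reads, such as *Scnn1g*, were measured imprecisely.

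Samples were grouped by the genotype in the labels. Counts were tested with edgeR 4.0.16 in R 4.3.3: genes were filtered with filterByExpr (minimum count 10), which kept 14610 genes, scaled with TMM, and fitted with the robust quasi-likelihood model with 1 factor of 4 groups, all 12 libraries sharing the estimate of spread. P-values were adjusted by Benjamini and Hochberg over all 14610 genes. Errors of log2 fold changes are standard errors derived from the F statistic, and intervals are 95%. P-values measure the spread between mice, which the labels call biological replicates. Calls needed a log2 fold change beyond 0.5 on either side together with an adjusted p below 0.05, the cutoffs of the study, whose test is not given in the sources used here. Groups were said not to overlap on TMM-scaled counts. Alternatives were DESeq2 1.42.0, median-of-ratios scaling in edgeR, no filter, a filter of 10 reads in every library, no fold cutoff, edgeR on the groups compared alone, a fit blocked on the replicate number, fits with a single library removed, and, chosen after seeing the data, the 4 libraries with *Lyz1* above 100 TPM left out or the summed Paneth level as a covariate. The procedure was also run on simulated data with known changes. These data were drawn from the fitted spread and held no libraries that stand apart, so that the run does not test how such libraries are handled. The 38 genes, the 103 other transport genes and the marker lists were chosen with earlier results of these data known. The rule for values in every library took genes called in any comparison and the 3 with the largest change in each comparison of 2 groups; *Car4*, *Scnn1a*, *Cftr*, *Kcne3* and *Slc6a14* were added to these after their values were seen, and other members were named by role. Overlaps and positions are from the GENCODE annotation of GRCm38, and promoters from RefSeq.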

Additional observations from a re-analysis of the deposited data

How the results depend on the processing

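Among 24 fold changes of members that were called or had an adjusted p under 0.05 under at least one setting, no direction changed under any alternative; against the value as reported, 379 recomputed values stayed on the same side of the threshold, 54 newly passed it and 57 no longer did. Picking values that passed under some setting favours a steady direction. Uncalled values did change sign, as given in the report for the libraries that stand apart. For CBPWTp53ΔIEC against CBPWTp53-floxed crypts, where 3 members were called, DESeq2 called 7, edgeR on these 2 groups alone 7, the fit with the replicate block 0 and the fit without the 4 libraries with small-intestinal RNA 11. Leaving out 1 library gave 0 to 6, with 0 without any of CBPWTp53-floxed replicates 1, 2 and 3, CBPWTp53ΔIEC replicates 2 and 3 and CBPAAp53ΔIEC replicate 2, 1 without CBPAAp53-floxed replicate 3, 5 without CBPAAp53ΔIEC replicate 3 and 6 without CBPAAp53-floxed replicate 2. For CBPAAp53ΔIEC against CBPAAp53-floxed crypts, with 0 called, DESeq2 called 1, the Paneth covariate 1, the fit without the 4 libraries 2, and leaving out 1 library 0 to 1. For p53 deletion averaged over CBP genotypes, with 3 called, the replicate block gave 0, the adjusted p alone 6, the Paneth covariate 7, the fit without the 4 libraries 7 and leaving out 1 library 0 to 5, with 0 without CBPWTp53-floxed replicate 1 or 2, CBPAAp53-floxed replicate 1 or CBPWTp53ΔIEC replicate 2 or 3, 1 without CBPWTp53-floxed replicate 3 or CBPAAp53ΔIEC replicate 1 or 2, and 5 without CBPWTp53ΔIEC replicate 1 or CBPAAp53ΔIEC replicate 3. The interaction gave 1 call, *Aqp4*, without the 4 libraries, on a CBPAAp53ΔIEC group of 1 mouse. The cause of these shifts was not tested. Over all genes in CBPWTp53ΔIEC against CBPWTp53-floxed crypts, DESeq2 called 863 of 13983 with an adjusted p, and edgeR on these 2 groups alone 723 of 14153. For CBPAAp53ΔIEC against CBPAAp53-floxed crypts edgeR called 4 genes, DESeq2 73, the Paneth covariate 857 and fits without 1 library 1 to 326. Averaged, 511 genes were called, 304 with the replicate block, 1432 with the Paneth covariate and 105 to 1073 without 1 library. The count over all genes for CBPWTp53ΔIEC against CBPWTp53-floxed crypts was 460, and 32 with the replicate block, 1 to 906 with 1 library left out and 1729 without the 4 libraries. The labels number mice 1 to 3 in each group, and these replicate numbers did not pair them. Same-numbered libraries had a median correlation of deviations of -0.03, with 3 of 18 pairs over 0.1. Of 36 pairs with unlike replicate numbers 12 were over 0.1. The highest, 0.64, was between CBPWTp53ΔIEC replicate 1 and CBPAAp53ΔIEC replicate 3, both with small-intestinal RNA. The further numbers in the library names were not used, and other relations between mice were not tested.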
